A study of Arabidopsis thaliana with 8 samples.

Results

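The growth-regulating factor (*GRF*) genes and the gene of their cofactor, *GIF1*, were followed in mRNA-seq of *Arabidopsis thaliana* seedlings. From the 37361 genes counted, 10 were picked by family and identifier, not by any measured value, but with earlier results of these data known. They are 7 *GRF* genes that carry the site of the microRNA miR396 (*GRF1*, *GRF2*, *GRF3*, *GRF4*, *GRF7*, *GRF8* and *GRF9*), the 2 *GRF* genes without it (*GRF5* and *GRF6*), and *GIF1*. The libraries came from 4 genotypes of the accession Columbia-0, with 2 libraries each from seedlings of 12 days (another label gives 2 weeks): *fry1-6 rdr6-11*, *fry1-6 rdr1-1*, *fry1-6* and the wild type (WT). All 3 mutants carry *fry1-6*, a T-DNA insertion in *FRY1* (AT5G63980), which encodes a phosphatase that degrades an inhibitor of XRN exoribonucleases. The double mutants also carry *rdr6-11* or the T-DNA allele *rdr1-1*, which affect RDR6 and RDR1, RNA-dependent RNA polymerases that copy transcripts into precursors of siRNAs. The comparisons address how transcript levels differ where FRY1 is lost, and whether they differ again where RDR6 or RDR1 is lost as well. Each mutation is represented by a single allele, no *rdr6-11* or *rdr1-1* plants with an intact *FRY1* were sequenced, and the labels do not say whether the libraries of a genotype came from separate batches of seedlings, so the p-values measure the spread between libraries, which may be technical.

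GRF proteins are plant transcription factors with a QLQ domain, which binds GIF coactivators, and a WRC domain, which holds a nuclear localisation signal and binds DNA. GIF1, also called ANGUSTIFOLIA3, carries no DNA-binding domain and links GRF proteins to SWI/SNF chromatin remodelling complexes. In young leaves this module keeps cells dividing, and loss of its members gives small, narrow leaves with fewer cells. miR396 accumulates as leaf cells leave the division phase and directs cleavage of those *GRF* transcripts that carry its site, which lies in the stretch that encodes the WRC domain.

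The libraries held between 15069329 and 26285519 counts on genes. Levels are given below as TMM-normalised CPM, a gene's counts relative to the total of its library times a TMM factor (0.892 to 1.22 among the libraries), where 3 counts, taken as the floor of detection, correspond to 0.121 to 0.215 CPM. Chloroplast genes took 2.29% to 2.80% of the counts in the double mutants and 0.0342% to 0.173% in the *fry1-6* and WT libraries, and leaving these genes out changed no call for any of the 10 genes. The source of this gap was not tested. A difference in how the double mutant libraries were prepared cannot be told apart from the *rdr* alleles, whichever genes are left out. The mutated genes gave no check of the labels, since none of them had its mutant libraries all below WT. *FRY1* had 80.6 and 151 CPM in the libraries labelled *fry1-6 rdr6-11*, 55.0 and 118 CPM in those labelled *fry1-6 rdr1-1*, 101 and 93.6 CPM in those labelled *fry1-6*, and 49.1 and 27.5 CPM in those labelled WT, so that every mutant library lay above WT. *RDR6* had 12.1 and 20.7 CPM in *fry1-6 rdr6-11*, against 39.5 and 20.2 CPM in WT, and *RDR1* had 28.8 and 19.5 CPM in *fry1-6 rdr1-1*, against 19.7 and 9.38 CPM in WT, and both overlapped. None of the 3 was called by edgeR in any comparison (1 of the 3, *FRY1*, had an unadjusted p under 0.05 in each mutant against WT, and DESeq2 called it higher in *fry1-6 rdr6-11*). In GEO the genotype entry of the libraries titled as the *rdr1* double mutant names the *rdr6* double mutant, and their titles were followed, so each genotype name below is that of the library labels. Among the tissue markers, the 6 genes of green shoot tissue summed to 22787 CPM or more in every library, whereas the 8 root markers summed to 14.4 CPM or less. The root meristem genes *PLT1* and *PLT2* had 0 counts in both WT libraries and at most 1 in a *fry1-6* library. They reached at most 10 and 9 counts in a *fry1-6 rdr6-11* library and 7 and 5 counts in a *fry1-6 rdr1-1* library. The double mutant libraries were deeper than those of *fry1-6* and WT, and both genes were too low to test. Of the 5 root markers that were tested, 3 had log2 fold changes above 0 and 2 below in *fry1-6 rdr6-11* against WT.

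The miR396 sites are shown first because they set the 7 targets apart from the other 3 genes. *Arabidopsis* has 2 miR396 loci, at chr2:4142443-4142463 (minus strand) and chr5:13611808-13611828 (plus strand) for the mature 5p strands in TAIR10.1. The mature sequences are read here from that RefSeq genome with the seed, bases 2 to 8, in capitals, and they differ only in the last base (G21U, counted from the 5′ end):
ath-miR396a-5p: uUCCACAGcuuucuugaacug
ath-miR396b-5p: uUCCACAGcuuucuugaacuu

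In the targets, the stretch with the best pairing to either miRNA was 22 bases long and lay within the coding sequence of a single exon in each gene. The capitals below mark the target bases that are not paired: a C opposite position 20 of the miRNA, which is a mismatch, and a base between those that pair with positions 7 and 8, which bulges out. *GRF1* (chr2:9729944-9729965, plus strand, exon 3 of 4) and *GRF2* (chr4:17726404-17726425, minus strand, exon 3 of 4) share a site, as do *GRF3* (chr2:15271745-15271766, minus strand, exon 3 of 4) and *GRF4* (chr3:19617293-19617314, minus strand, exon 3 of 4), and *GRF7* (chr5:21795145-21795166, plus strand, exon 2 of 3) and *GRF8* (chr4:12538649-12538670, plus strand, exon 5 of 6), while *GRF9* (chr2:18746292-18746313, plus strand, exon 2 of 4) has its own:
GRF1 and GRF2: uCguucaagaaagcCuguggaa
GRF3 and GRF4: cCguucaagaaagcCuguggaa
GRF7 and GRF8: uCguucaagaaagcAuguggaa
GRF9: aCguucaagaaagcUuguggaa

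The 7 sites differ among themselves in 2 places, the first base and the bulged base, and the bulged base is C in the 4 genes with the largest transcript pools below, A in *GRF7* and *GRF8*, and U in *GRF9*. With a mismatch or bulge counted as 1 and a G:U pair as 0.5, the sites scored 2 (*GRF3*, *GRF4* and *GRF9*) or 2.5 (*GRF1*, *GRF2*, *GRF7* and *GRF8*, whose first base makes a G:U pair). A score of 3 or less was found in 34 of 27444 protein-coding genes (0.124%), 7 of them these targets. The bulge was sought only between positions 7 and 8 in that count of all genes, but at any inner position in the members. The lowest scores in the other members were 5.5 in *GRF6* and *GIF1* and 6.5 in *GRF5*. The coding stretches of *GRF5* (chr3:4609155-4609176, plus strand) and *GRF6* (chr2:2426400-2426421, plus strand) that come closest to the site of *GRF3* and *GRF4* are given for contrast, with the bases that differ from that site in capitals, 7 in *GRF5* and 10 in *GRF6*. Both scored 8 against miR396:
GRF5: ccguGcCagaaaAUcuCuUgaU
GRF6: GUguucaagUaCUUAGCugCaa

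*GRF1* to *GRF4* were higher in all 3 mutants than in WT. *GRF1* (AT2G22840) had 64.5 and 63.0 CPM in *fry1-6 rdr6-11*, 83.0 and 92.8 CPM in *fry1-6 rdr1-1*, 118 and 96.9 CPM in *fry1-6*, and 22.4 and 15.1 CPM in WT. *GRF2* (AT4G37740) had 25.6 and 23.5 CPM in *fry1-6 rdr6-11*, 28.2 and 32.8 CPM in *fry1-6 rdr1-1*, 23.9 and 21.7 CPM in *fry1-6*, and 8.01 and 5.70 CPM in WT. In both genes every mutant library lay above both WT libraries, but *GRF1* was highest in *fry1-6* and *GRF2* in *fry1-6 rdr1-1*. *GRF3* (AT2G36400) had 103 and 84.0 CPM in *fry1-6 rdr6-11*, 136 and 109 CPM in *fry1-6 rdr1-1*, 69.2 and 88.7 CPM in *fry1-6*, and 19.0 and 18.5 CPM in WT. *GRF4* (AT3G52910) had 38.6 and 33.8 CPM in *fry1-6 rdr6-11*, 38.9 and 44.2 CPM in *fry1-6 rdr1-1*, 28.9 and 22.6 CPM in *fry1-6*, and 9.51 and 5.21 CPM in WT. *GRF3* and *GRF4*, like *GRF2*, were highest in *fry1-6 rdr1-1*, and none of their mutant libraries reached down to the WT range.

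The 3 remaining targets were far less abundant. *GRF9* (AT2G45480), known for restricting organ growth in contrast to most of the family, had 5.44 and 5.24 CPM in *fry1-6 rdr6-11*, 4.72 and 4.73 CPM in *fry1-6 rdr1-1*, 3.74 and 3.44 CPM in *fry1-6*, and 2.29 and 2.33 CPM in WT, again with every mutant library above WT. *GRF7* (AT5G53660), known as a repressor of the stress regulator *DREB2A*, had 2.00 and 4.09 CPM in *fry1-6 rdr6-11*, 0.926 and 1.49 CPM in *fry1-6 rdr1-1*, 0.936 and 0.260 CPM in *fry1-6*, and 1.00 and 0.368 CPM in WT. Both *fry1-6 rdr6-11* libraries stood above both WT libraries, while the *fry1-6* and *fry1-6 rdr1-1* libraries overlapped WT. *GRF8* (AT4G24150) had 1.44 and 2.07 CPM in *fry1-6 rdr6-11*, 1.57 and 0.646 CPM in *fry1-6 rdr1-1*, 1.604 and 1.43 CPM in *fry1-6*, and 0.572 and 0.674 CPM in WT, with 1 *fry1-6 rdr1-1* library inside the WT range. *GRF7* and *GRF8* rested on few reads, at most 89 and 45 counts in a library.

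Of the genes without the site and the cofactor, *GRF5* and *GIF1* were called by neither edgeR nor DESeq2 in any comparison, and *GRF6* was too low to test. *GRF5* (AT3G13960), which promotes cell division in leaf primordia, had 7.18 and 7.68 CPM in *fry1-6 rdr6-11*, 6.99 and 6.62 CPM in *fry1-6 rdr1-1*, 4.68 and 6.30 CPM in *fry1-6*, and 6.80 and 4.54 CPM in WT, so that the *fry1-6* and *fry1-6 rdr1-1* libraries overlapped WT and the *fry1-6 rdr6-11* libraries lay above it. *GIF1* (AT5G28640, chr5:10647467-10650066, minus strand) had 6.67 and 6.94 CPM in *fry1-6 rdr6-11*, 9.72 and 11.0 CPM in *fry1-6 rdr1-1*, 7.82 and 6.04 CPM in *fry1-6*, and 8.58 and 9.07 CPM in WT. It was thus a little below WT in *fry1-6* and *fry1-6 rdr6-11* and a little above it in *fry1-6 rdr1-1*. *GRF6* (AT2G06200) was barely detected, with 11 and 14 counts in *fry1-6 rdr6-11*, 3 and 6 counts in *fry1-6 rdr1-1*, 2 and 0 counts in *fry1-6*, and 8 and 4 counts in WT. The count of 0 in the second *fry1-6* library allows a level of up to 0.195 CPM. *GRF6* did not pass the filter on low counts, so 9 of the 10 genes were tested among 22744 genes in all.

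**Figure D1:**
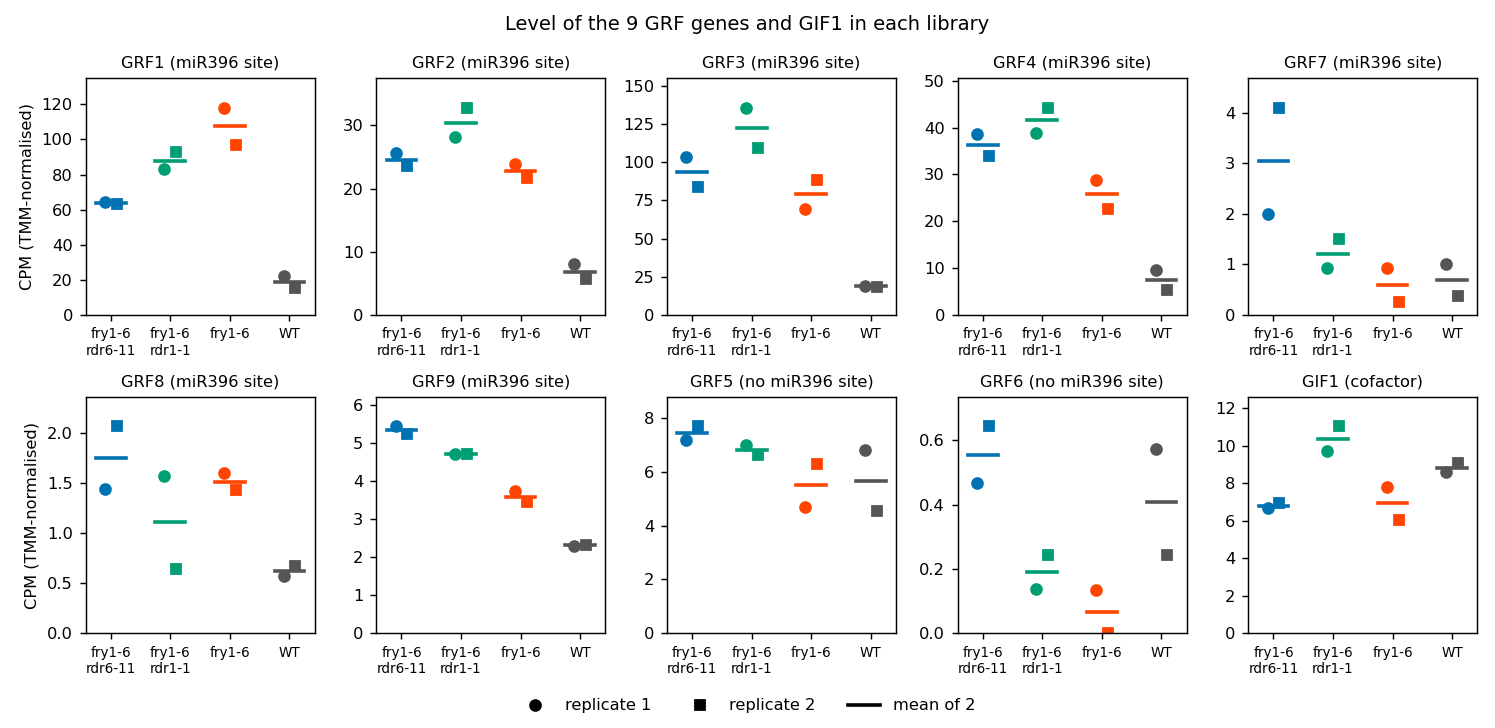
Level of each *GRF* gene and of *GIF1* in every library, in TMM-normalised CPM on linear axes that start at 0, with circles for replicate 1, squares for replicate 2 and a bar at the mean of both. In *GRF1* to *GRF4* and *GRF9* all 6 mutant libraries lie above both WT libraries, whereas the targets *GRF7* and *GRF8* and the genes *GRF5*, *GRF6* and *GIF1* show no such separation.

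Against WT, *fry1-6* was called higher for 4 of the 9 genes tested, *GRF1* to *GRF4*, and lower for none, where 5.03% of all genes tested were called higher and 0.387% lower at an adjusted p under 0.05. Both *fry1-6* libraries lay above both WT libraries in 6 of the 9, as in 23.3% of all genes, and below them in 1, *GIF1*, as in 19.1%. By the quasi-likelihood test of edgeR, with p-values adjusted over all genes by the Benjamini-Hochberg method, *GRF1* changed most, with a log2 fold change of 2.52 ± 0.23 (SE, n = 2 libraries per genotype) and an adjusted p of 0.00279. *GRF3* followed at 2.07 ± 0.21 (adjusted p = 0.00360, same test), *GRF4* at 1.81 ± 0.29 (adjusted p = 0.0169) and *GRF2* at 1.74 ± 0.21 (adjusted p = 0.00595). These are 5.74-fold, 4.20-fold, 3.51-fold and 3.33-fold higher levels in *fry1-6*. *GRF9*, at 0.64, and *GRF8*, at 1.27, were above WT in both libraries but missed the threshold (edgeR's adjusted p of 0.181 and 0.257), and the interval for *GRF7* ran from -2.09 to 1.73. The median over the 7 targets was 1.74, against -0.03 over all genes tested. *GRF5* differed by -0.04, with a 95% interval of -0.68 to 0.59, and *GIF1* by -0.35, with an interval of -0.82 to 0.12. Both intervals end below the smallest lower bound among *GRF1* to *GRF4*, 1.11 for *GRF4*. The calls of *GRF1* to *GRF4* rest on a spread estimated from all 8 libraries: fitted on the *fry1-6* and WT libraries alone, none of the 4 passed (adjusted p = 0.0657 to 0.131, edgeR). *GRF4* also missed the threshold without *fry1-6* replicate 1 (edgeR's adjusted p of 0.0891).

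In *fry1-6 rdr6-11* against WT, 5 of the 9 genes were called higher and none lower, where 10.9% of all genes were called higher and 7.94% lower. The libraries did not overlap in any of the 9: 8 lay above WT, as did 34.5% of all genes, and *GIF1* lay below, as did 27.1%. *GRF3* was 4.99-fold and *GRF4* 4.93-fold higher in the double mutant, *GRF2* 3.59-fold, *GRF1* 3.40-fold and *GRF9* 2.31-fold, with log2 fold changes of 2.32 ± 0.21, 2.30 ± 0.30, 1.84 ± 0.21, 1.77 ± 0.22 and 1.21 ± 0.22 (SE). Their adjusted p lay between 0.00203 and 0.0136 by edgeR's quasi-likelihood test. *GRF7*, at 2.16 ± 0.72, and *GRF8*, at 1.48 ± 0.51, had values of similar size but few counts and did not pass (edgeR's adjusted p of 0.0796 and 0.0887). *GRF7* passed with DESeq2 (adjusted p = 0.0378), and both passed in edgeR with total counts as the scaling (adjusted p = 0.0395 and 0.0380). The median over the targets was 1.84, against 0.04 over all genes. *GRF5* was at 0.39 with an interval of -0.23 to 1.02, and *GIF1* at -0.38 with an interval of -0.84 to 0.09. *GRF9* lost its call when either *fry1-6 rdr6-11* library was left out (largest adjusted p = 0.0878, edgeR).

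In *fry1-6 rdr1-1* against WT the same 5 genes were called higher and none lower, beside 5.90% of all genes called higher and 2.07% lower. In 6 of the 9, these 5 and *GIF1*, both libraries lay above WT, as in 30.7% of all genes. *GRF3* was 6.51-fold, *GRF4* 5.66-fold, *GRF1* 4.70-fold, *GRF2* 4.45-fold and *GRF9* 2.04-fold higher in the double mutant. The log2 fold changes were 2.70 ± 0.21, 2.50 ± 0.30, 2.23 ± 0.23, 2.15 ± 0.21 and 1.03 ± 0.22 (SE), with adjusted p between 0.00198 and 0.0361 by edgeR's quasi-likelihood test. The call of *GRF9* was the weakest, since it was lost when any of the 8 libraries was left out (adjusted p = 0.0683 to 0.165, edgeR), although its log2 fold change then stayed between 0.99 and 1.04. Fitted on the *fry1-6 rdr1-1* and WT libraries alone, *GRF1*, *GRF2*, *GRF4* and *GRF9* did not pass (adjusted p = 0.0654 to 0.204, edgeR). *GRF7* was at 0.84 and *GRF8* at 0.81, with intervals that include 0, as did those of *GRF5*, at 0.27 (-0.36 to 0.89), and *GIF1*, at 0.23 (-0.23 to 0.70). The 3 comparisons share the WT libraries, so they are not independent of each other. Among all genes, 3.67% were called higher in all 3 mutants, as *GRF1* to *GRF4* were, and 14.3% had all 6 mutant libraries above both WT libraries, as *GRF1* to *GRF4* and *GRF9* did.

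**Figure D2:**
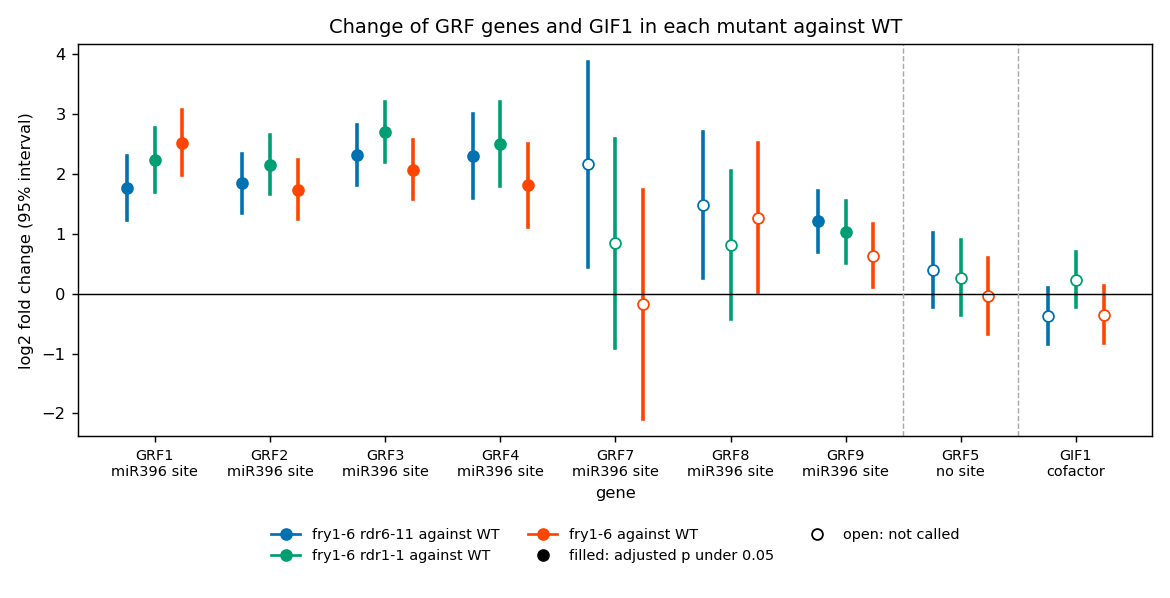
Log2 fold change of each tested gene in *fry1-6 rdr6-11*, *fry1-6 rdr1-1* and *fry1-6* against WT, with 95% intervals from edgeR's quasi-likelihood fit, filled points being called at an adjusted p under 0.05. *GRF1* to *GRF4* are called in all 3 mutants and *GRF9* in the double mutants, while *GRF5* and *GIF1* lie near 0.

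Between the mutants, no member was called by edgeR. In *fry1-6 rdr6-11* against *fry1-6*, where 1.83% of all genes were called higher and 2.93% lower, 3 of the 9 had an unadjusted p under 0.05 and DESeq2 called 2. Of all 22744 genes tested, DESeq2 called 971 higher and 1796 lower in this comparison. In 4 genes both double mutant libraries lay above both *fry1-6* libraries, as in 31.7% of all genes, and in 1, *GRF1*, they lay below, as in 29.2%. *GRF1* stood at a log2 fold change of -0.75 ± 0.22 (SE) with an interval of -1.27 to -0.24 and an adjusted p of 0.0937 by edgeR's quasi-likelihood test. This value sat close to the threshold: it passed with DESeq2 (adjusted p = 0.0239) and, in edgeR, when either WT library was left out (adjusted p = 0.0407 each time), whereas the adjusted p rose to 0.323 without *fry1-6 rdr6-11* replicate 2. At 3.40-fold above WT, *GRF1* in *fry1-6 rdr6-11* remained well over the WT range. *GRF3* stood at 0.25 (-0.23 to 0.72), *GRF2* at 0.11 (-0.36 to 0.57) and *GRF4* at 0.49 (-0.17 to 1.15). The lowest bound of these 3 intervals, -0.36, compares with rises of 1.74, 2.07 and 1.81 for *GRF2*, *GRF3* and *GRF4* in *fry1-6* against WT. *GRF7* had the largest positive value, 2.34 ± 0.73 (SE), at an adjusted p of 0.110 by edgeR's test, and it too passed with DESeq2, on few counts. The intervals of *GRF5*, at 0.44 (-0.19 to 1.06), and *GIF1*, at -0.03 (-0.50 to 0.44), include 0.

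In *fry1-6 rdr1-1* against *fry1-6*, 0.207% of all genes were called higher and 0.0572% lower, and 3 of the 9 members had an unadjusted p under 0.05, but DESeq2 called none. *GRF2*, *GRF3* and *GRF4* lay above both *fry1-6* libraries in both double mutant libraries, at log2 fold changes of 0.42, 0.63 and 0.69, whereas *GRF1* lay below them at -0.29 (-0.80 to 0.22). Such an order, with both libraries above, was seen in 6 of the 9 members and in 25.8% of all genes, and with both below in 1 and in 24.3%. The smallest adjusted p among the members was 0.224, for *GRF3*, by edgeR's test. *GIF1* was at 0.58 (0.12 to 1.05), also without a call (adjusted p = 0.240, edgeR). Comparing *fry1-6 rdr6-11* with *fry1-6 rdr1-1* directly, where 0.101% of genes were called higher and 1.00% lower, 1 of the 9 members had an unadjusted p under 0.05 and DESeq2 called none. *GRF1* to *GRF4* lay lower in both *fry1-6 rdr6-11* libraries, with log2 fold changes of -0.46, -0.31, -0.39 and -0.20. With *GIF1* that made 5 of 9 below, against 28.2% of all genes, and the remaining 3 that did not overlap lay above, against 30.2%. *GIF1* was at -0.61 (-1.07 to -0.15), with an adjusted p of 0.202 by edgeR's test. The signs of the small differences in *GRF2* and *GRF4* turned positive, at 0.02 and 0.13, when the libraries were scaled by their total counts, a scaling that shifts the median of all genes by 0.34 in this comparison.

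**Figure D3:**
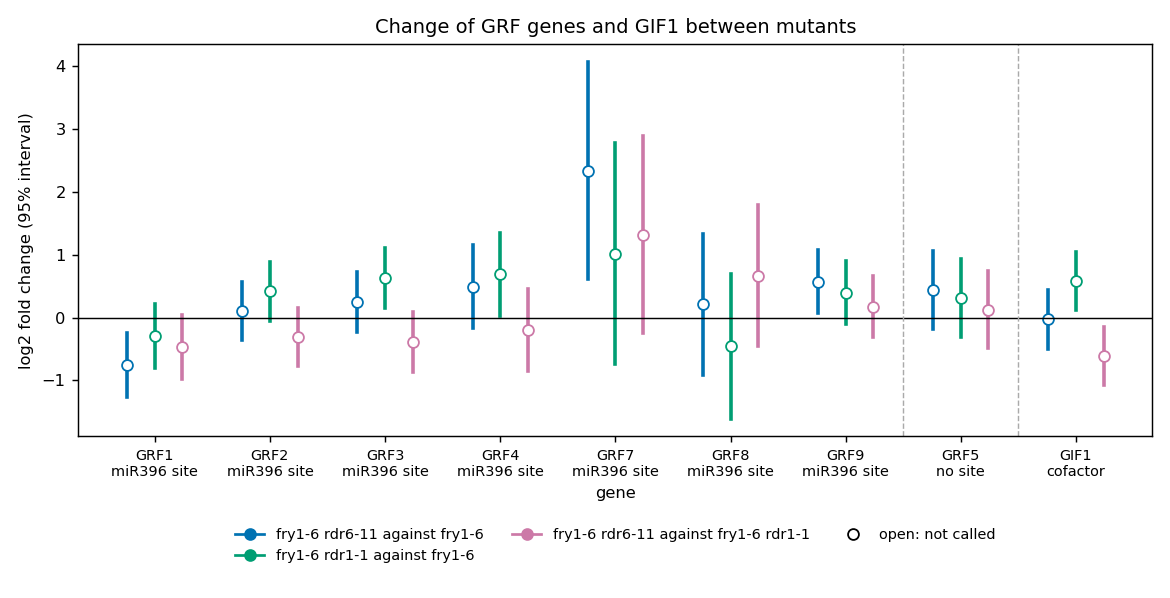
Log2 fold change of each tested gene between the mutants, with 95% intervals from edgeR's quasi-likelihood fit; every point is open because none of these genes was called. *GRF1* is below 0 in all 3 comparisons, while *GRF2*, *GRF3* and *GRF4* are above 0 in both double mutants against *fry1-6*.

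Levels of different genes were compared per kb of exon. In *fry1-6 rdr6-11* and in *fry1-6 rdr1-1* the order was *GRF3* first, at 49.1 ± 7.14 and 64.2 ± 9.82 CPM per kb (SD, n = 2 libraries), then *GRF1*, at 30.1 ± 0.50 and 41.6 ± 3.28, *GRF4*, at 22.9 ± 2.14 and 26.3 ± 2.35, and *GRF2*, at 11.7 ± 0.69 and 14.5 ± 1.55, with no overlap between neighbours. In *fry1-6* the mean of *GRF1*, 50.8 ± 7.02 CPM per kb, exceeded that of *GRF3*, 41.4 ± 7.24, but their libraries overlapped, and *GRF4*, at 16.3 ± 2.80, and *GRF2*, at 10.8 ± 0.75, came next. In WT, *GRF3*, at 9.84 ± 0.19 CPM per kb, and *GRF1*, at 8.86 ± 2.44, overlapped, and below them *GRF4*, *GIF1*, *GRF2* and *GRF5* formed a run from 4.65 to 2.86 CPM per kb in which each overlapped the next. *GRF9* came below that run, at 1.19 CPM per kb, and *GRF7*, *GRF6* and *GRF8* could not be ordered, at 0.40, 0.37 and 0.30 CPM per kb.

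The balance between *GRF1* and *GRF3* was read as a ratio in each library. The ratio of *GRF1* to *GRF3* per kb was 0.563 and 0.676 in *fry1-6 rdr6-11*, 0.552 and 0.767 in *fry1-6 rdr1-1*, 1.54 and 0.986 in *fry1-6*, and 1.06 and 0.735 in WT. All 4 double mutant libraries lay below both *fry1-6* libraries, and those of *fry1-6 rdr1-1* overlapped WT. With 2 libraries against 2 no exact permutation test of such a ratio can go below p = 0.333, so the ratios are given without a test.

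**Figure D4:**
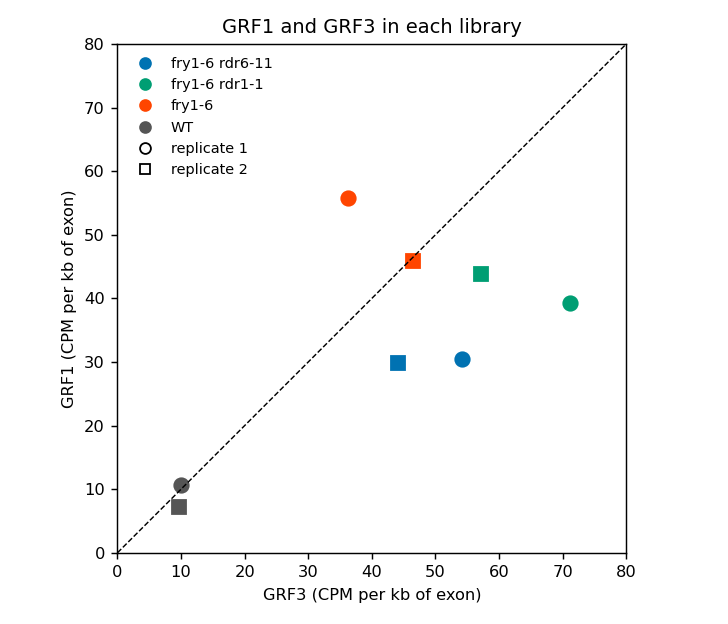
*GRF1* plotted against *GRF3* in each library, both in CPM per kb of exon on linear axes, with the dashed line marking equal levels. All 4 double mutant libraries lie below the line and the *fry1-6* libraries lie above it (ratio 1.54) and just under it (0.986).

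The whole family was also weighed as pools. *GRF1* to *GRF4* together had 121 and 106 CPM per kb in *fry1-6 rdr6-11*, 148 and 145 in *fry1-6 rdr1-1*, 122 and 117 in *fry1-6*, and 30.4 and 22.9 in WT. The pool of *GRF1* to *GRF4* was 33.4 and 27.5 times the level of *GRF5* in *fry1-6 rdr6-11*, 42.0 and 43.2 times in *fry1-6 rdr1-1*, 51.5 and 36.8 times in *fry1-6*, and 8.86 and 9.98 times in WT. All 6 mutant libraries thus lay above both WT libraries in this ratio, which does not depend on how the libraries were scaled. Against *GIF1* the same pool was 44.1 and 37.2 times as high in *fry1-6 rdr6-11*, 37.1 and 31.9 times in *fry1-6 rdr1-1*, 37.8 and 47.0 times in *fry1-6*, and 8.60 and 6.12 times in WT. Among the 9 *GRF* genes, *GRF1* to *GRF4* made up 93.3% and 91.0% of the level per kb in *fry1-6 rdr6-11*, 95.3% in both *fry1-6 rdr1-1* libraries, 95.5% and 95.3% in *fry1-6*, and 83.5% and 84.3% in WT.

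**Figure D5:**
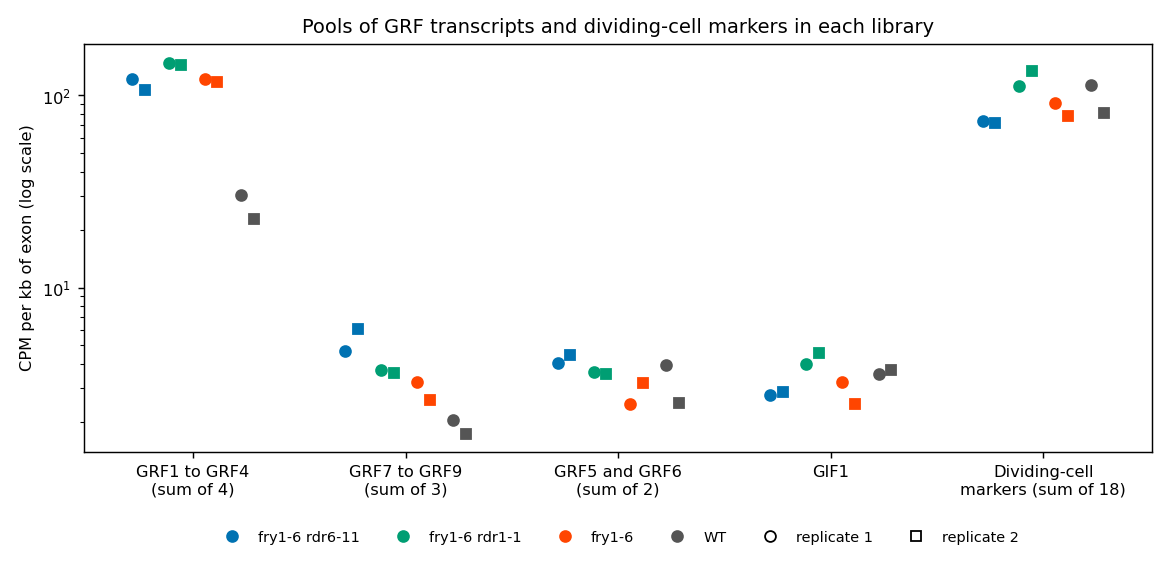
Summed levels of *GRF1* to *GRF4*, of *GRF7* to *GRF9* and of *GRF5* with *GRF6*, the level of *GIF1*, and the sum of 18 markers of dividing cells, in CPM per kb of exon on a log axis, with 1 point per library. The *GRF1* to *GRF4* pool is 106 or more in every mutant library and 30.4 or less in WT, while the markers of dividing cells lie below WT in *fry1-6 rdr6-11* and overlap WT in the other mutants. The marker order of *fry1-6 rdr6-11* and WT does not hold with total counts as the scaling.

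Because *GRF* genes act in dividing tissue, markers of dividing cells were read beside them. In bulk seedlings, fewer cells of a type and less RNA per cell cannot be told apart. The 18 markers, B-type and A-type cyclins, CDKB kinases, cytokinesis genes and replication genes, summed to 124 and 121 CPM in *fry1-6 rdr6-11*, 190 and 231 CPM in *fry1-6 rdr1-1*, 159 and 130 CPM in *fry1-6*, and 202 and 138 CPM in WT, so that the *fry1-6 rdr6-11* libraries lay below both WT libraries and the others overlapped WT. That order depends on the scaling. The TMM factors were 1.14 and 1.22 in *fry1-6 rdr6-11* and 0.892 and 0.935 in WT, and with total counts the sums of both genotypes overlap. In *fry1-6* none of the 18 was called by edgeR (2 had an unadjusted p under 0.05, both lower, and DESeq2 called 1, lower), and their median log2 fold change was -0.06, against 1.74 for the 7 targets. In *fry1-6 rdr6-11*, 1 of the 18 was called lower (*CYCB1-2*), beside 7.94% of all genes, and none higher. In *fry1-6 rdr1-1*, 1 was called higher (*CDKB2-1*), beside 5.90% of all genes, and none lower. Of the 18, all lay below 0 in *fry1-6 rdr6-11* against *fry1-6 rdr1-1*, with a median of -0.73, the same direction as *GRF1* to *GRF4* and *GIF1*, and none of them was called by edgeR (11 had an unadjusted p under 0.05, and DESeq2 called 5). Of all 22744 genes tested, 10990 lay below 0 in this comparison, and DESeq2 called 1032 lower. The shared direction depends on TMM for some of these genes. With total counts as the scaling *GRF2* and *GRF4* turned positive. *GRF1*, *GRF3* and *GIF1* stayed below 0 under every alternative, at -0.13, -0.05 and -0.27 or lower. Total counts shift the median of all genes by 0.34 here, beside the marker median of -0.73, and the marker closest to 0 was at -0.12. Of the 6 markers of green shoot tissue, 3 were called lower by edgeR in *fry1-6 rdr6-11* against each of *fry1-6 rdr1-1*, *fry1-6* and WT, beside 1.00%, 2.93% and 7.94% of all genes. In *fry1-6 rdr1-1* against WT, 1 of the 6 green markers was called higher, beside 5.90% of all genes. They summed to 26722 and 22787 CPM in *fry1-6 rdr6-11*, 67016 and 56070 CPM in *fry1-6 rdr1-1*, 50356 and 36883 CPM in *fry1-6*, and 49377 and 29213 CPM in WT. Root markers summed to 10.2 and 9.19 CPM in *fry1-6 rdr6-11*, 12.0 and 9.53 CPM in *fry1-6 rdr1-1*, 14.4 and 5.85 CPM in *fry1-6*, and 6.22 and 2.33 CPM in WT, and markers of the shoot meristem to between 2.14 and 4.93 CPM. Among the 5 root markers tested, 3 had log2 fold changes above 0 and 2 below in *fry1-6 rdr6-11* and in *fry1-6* against WT. In *fry1-6 rdr1-1* against WT all 5 were above 0. *CASP1* and *CASP2*, genes of the root endodermis, lay above WT in both libraries of every mutant, as did 14.3% of all genes. Their log2 fold changes were 1.38 and 1.69 in *fry1-6 rdr6-11*, 1.601 and 1.57 in *fry1-6 rdr1-1*, and 1.82 and 1.61 in *fry1-6*. Of these, edgeR called *CASP2* in *fry1-6 rdr6-11*, where 10.9% of all genes were called higher, and DESeq2 called it in all 3 mutants and *CASP1* in *fry1-6*. The part of these tissue differences in the *GRF* results was not tested.

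Among the partners of the module edgeR made 1 call against WT, lower in *fry1-6 rdr6-11*, where 7.94% of all genes were called lower. The list held the coactivators *GIF2* and *GIF3*, the SWI/SNF ATPases *BRM* and *SYD*, and their complex members *SWP73A* and *SWP73B*. None of the 6 was called by edgeR in *fry1-6* against WT (0 at an unadjusted p under 0.05, 0 by DESeq2) or in *fry1-6 rdr1-1* against WT (3 at an unadjusted p under 0.05, 2 by DESeq2), and 1 was called lower and none higher in *fry1-6 rdr6-11* (4 at an unadjusted p under 0.05, of which 2 were higher). That gene, *BRM*, had 93.5 and 101 CPM in *fry1-6 rdr6-11*, against 176 and 159 CPM in WT, a log2 fold change of -0.79 ± 0.15 (SE; adjusted p = 0.0166, edgeR's quasi-likelihood test). Its mean was also lower in the other mutants, at 118 CPM in *fry1-6 rdr1-1* and 147 CPM in *fry1-6*, against 168 CPM in WT. DESeq2 called *BRM* lower in *fry1-6 rdr1-1* against WT (log2 fold change -0.57, adjusted p = 0.0108). *GIF3* had 10.03 and 9.79 CPM in *fry1-6 rdr6-11*, 14.6 and 11.8 CPM in *fry1-6 rdr1-1*, 3.81 and 4.87 CPM in *fry1-6*, and 4.36 and 7.24 CPM in WT. All 4 double mutant libraries lay above WT, and edgeR called it in no comparison, whereas DESeq2 called it higher in *fry1-6 rdr1-1* against WT (adjusted p = 0.0153) and in both double mutants against *fry1-6* (adjusted p = 0.0146 in *fry1-6 rdr6-11* and 0.00123 in *fry1-6 rdr1-1*).

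Other genes with a miR396-like site were counted in the same way. The 27 genes outside the family whose pairing score was also 3 or less were listed after the values of the *GRF* genes had been seen, and no test was made of the list. Of the 24 that passed the filter, none was called by edgeR in any mutant against WT, although 2 or 3 had an unadjusted p under 0.05 in each and DESeq2 called 1 in each, and their medians were -0.01 in *fry1-6 rdr6-11*, 0.07 in *fry1-6 rdr1-1* and -0.17 in *fry1-6*. In both double mutants the gene called by DESeq2 was *FLU*, which belongs to this list and was lower than in WT. Of the targets of miR396 named outside the *GRF* family, *bHLH74*, a growth regulator whose site scored 3.5, had 65.1 and 64.1 CPM in *fry1-6 rdr6-11*, 47.8 and 40.0 CPM in *fry1-6 rdr1-1*, 30.9 and 60.2 CPM in *fry1-6*, and 16.4 and 33.8 CPM in WT. Both libraries of each double mutant lay above WT, while *fry1-6* overlapped it, and edgeR did not call it, though DESeq2 called it higher in *fry1-6 rdr6-11* (adjusted p = 0.0184). *FLU*, a regulator of chlorophyll synthesis with a site scored 2.5, had 82.1 and 74.3 CPM in *fry1-6 rdr6-11*, 76.4 and 82.4 CPM in *fry1-6 rdr1-1*, 78.8 and 84.0 CPM in *fry1-6*, and 102 and 114 CPM in WT, lower in every mutant library. It was not called by edgeR, and DESeq2 called it lower in *fry1-6 rdr6-11* and in *fry1-6 rdr1-1* against WT (adjusted p = 0.0183 and 0.0402). *TCP4*, a transcription factor known to raise miR396 levels, was called by neither tool. The miR396 precursors themselves were not analysed here.

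Genes known to act downstream of *GRF* proteins or GIF1, or beside them in organ growth, were counted next. Of 8 genes described as downstream of *GRF* proteins or GIF1, none was called by edgeR in *fry1-6* against WT (1 at an unadjusted p under 0.05, 0 by DESeq2). In *fry1-6 rdr6-11*, 2 were lower, beside 7.94% of all genes, and none higher. In *fry1-6 rdr1-1*, 1 was higher, beside 5.90% of all genes, and none lower. *DREB2A* had 5.14 and 3.82 CPM in *fry1-6 rdr6-11*, against 35.6 and 16.1 CPM in WT, a log2 fold change of -2.52 ± 0.53 (SE; adjusted p = 0.0219, edgeR's test). Its mean was 16.0 CPM in *fry1-6 rdr1-1* and 15.5 CPM in *fry1-6*, against 25.8 CPM in WT, without a call in either. *COL5*, a CONSTANS-like gene, had 18.1 and 16.0 CPM in *fry1-6 rdr6-11*, 432 and 276 CPM in *fry1-6 rdr1-1*, 179 and 283 CPM in *fry1-6*, and 116 and 122 CPM in WT, so that the double mutants departed from WT in opposite directions. Of the 6 growth genes, none was called by edgeR in *fry1-6* (2 at an unadjusted p under 0.05, 0 by DESeq2), and 3 were called higher and none lower in each double mutant, beside 10.9% of all genes called higher in *fry1-6 rdr6-11* and 5.90% in *fry1-6 rdr1-1*. They included the D-type cyclin genes *CYCD3-1* and *CYCD3-2*, which sustain division in leaves, in both. *CYCD3-1* had 32.5 and 30.2 CPM in *fry1-6 rdr6-11*, 30.0 and 37.7 CPM in *fry1-6 rdr1-1*, 23.7 and 21.5 CPM in *fry1-6*, and 15.7 and 14.4 CPM in WT, and its log2 fold change was 1.06 ± 0.17 in *fry1-6 rdr6-11* and 1.17 ± 0.17 in *fry1-6 rdr1-1* (SE; adjusted p = 0.00968 and 0.0126, edgeR's test). *ARGOS*, a gene that enlarges organs, was the other call of edgeR in *fry1-6 rdr6-11* (log2 fold change 1.81, against 1.45 in *fry1-6 rdr1-1*) and *CYCD3-3* that in *fry1-6 rdr1-1* (0.92, against 0.27 in *fry1-6 rdr6-11*). Neither was called between the double mutants, and DESeq2 called both in *fry1-6 rdr1-1*.

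Overlaps and copies could affect the counts of some members. In the 1 transcript read for each member, no stretch of 50 bases recurred in the same orientation in a transcript of another gene. Reads of the members were thus not interchangeable at that length, apart from overlaps on the opposite strand. The strand setting of the counting is not stated, and 4 members overlap a gene on the opposite strand. For *GRF1* and *GRF3* the overlaps cover 1.21% of the exon bases or less per neighbour. *GRF9* overlaps AT2G45490 over 6.47% of its exon bases, and that neighbour had 46 and 53 counts in *fry1-6 rdr6-11*, 74 and 94 counts in *fry1-6 rdr1-1*, 22 and 38 counts in *fry1-6*, and 24 and 27 counts in WT. *GRF7* overlaps AT5G08015 over 14.2% of its exon bases, but that gene had at most 3 counts in any library.

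Across the 8 libraries, the mean profile of the 7 targets was most like that of AT3G04015, AT5G54095, *RSY3*, AT5G49920 and AT1G07517, with Pearson correlations of 0.997, 0.996, 0.993, 0.992 and 0.988 on log2 levels. This is a description over 8 libraries that share their genotypes, and 354 of 22735 other genes correlated above 0.95. *RSY3*, named RASPBERRY 3 in the annotation, had 14.5 and 15.3 CPM in *fry1-6 rdr6-11*, 14.9 and 14.5 CPM in *fry1-6 rdr1-1*, 14.1 and 12.2 CPM in *fry1-6*, and 9.66 and 9.01 CPM in WT. Within the family, *GRF2* correlated with *GRF4* at 0.988 and with *GRF3* at 0.972, whereas *GIF1* correlated with *GRF1* to *GRF4* at between -0.19 and -0.08. The targets *GRF7*, *GRF8* and *GRF9* correlated with *GRF1* to *GRF4* at 0.21 to 0.55, 0.60 to 0.66 and 0.74 to 0.93. *GRF5*, without the site, did so at 0.24 to 0.55, close to the range of *GRF7*.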

How the data were processed

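mRNA-seq libraries of 4 genotypes, 2 per genotype, were analysed. The authors deposited raw counts of read pairs per gene, made per the labels and their methods with STAR (version 2.6) against Araport11 and featureCounts (version 1.6.4), without normalization. A read with several possible positions was given to 1 of them, and the strand setting is not given in the sources used here. From the counts, genes were filtered with filterByExpr (minimum count 10, minimum total 15), scaled by TMM and tested with edgeR's quasi-likelihood test (edgeR 4.0.16, R 4.3.3), two-sided, in 1 fit of genotype over 8 libraries with 4 residual degrees of freedom. For 6 comparisons, genes were called at an adjusted p under 0.05 (Benjamini-Hochberg over 22744 genes). The biological coefficient of variation was 27.0%. SEs were derived from the F statistics. Precision is set by 2 libraries per genotype and, in low genes, by counting error.

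The members were given by identifier. The members and all gene lists were chosen with earlier results of these data known: partners, the miR396 module, genes reported downstream of *GRF* proteins or GIF1, growth genes and tissue markers. All members are named, with at most 4 genes of each further list. Flower markers summed to 5.64 CPM or less and seed markers to 0.323 CPM or less in every library. Site sequences were read from TAIR10.1 (RefSeq), where the exon length matches the deposited gene length in 99.5% of 37051 nuclear genes. Pairing was scored on the spliced transcripts, with at most 1 unpaired target base. Scripts were tested on simulated data. Alternatives were DESeq2 1.42.0, other scalings and filters, smaller fits, a replicate block and leaving out each library.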

Additional observations from a re-analysis of the deposited data

How the results depend on the processing

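Of 864 values of the 9 tested members under the alternatives, 822 kept their direction and their side of the threshold, 10 gained a call, 21 lost one, and 11, all without a call, changed sign. With total counts *GRF5* in *fry1-6* against WT was at 0.084, *GIF1* in *fry1-6 rdr6-11* against *fry1-6* at 0.22, and *GRF2* and *GRF4* between the double mutants at 0.023 and 0.13. Leaving out a library gave -1.35 to 0.68 for *GRF7* and -0.31 to 0.28 for *GRF5* in *fry1-6* against WT, -0.22 to 0.17 for *GIF1* and -0.11 to 0.42 for *GRF8* in *fry1-6 rdr6-11* against *fry1-6*, and -1.22 to 0.054 for *GRF8* in *fry1-6 rdr1-1* against *fry1-6*. Fitting only the genotypes compared, which leaves fewer libraries to estimate the spread, called 0 members in *fry1-6* against WT and 1, *GRF3*, in *fry1-6 rdr1-1* against WT, in place of 4 and 5. In *fry1-6 rdr6-11* against *fry1-6*, with no member called, DESeq2 called 2 and leaving out a library gave 0 to 1. Leaving out a library gave 3 to 4 members in *fry1-6* against WT, 4 to 5 in *fry1-6 rdr6-11* against WT and 4 each time in *fry1-6 rdr1-1* against WT. The median of the targets in *fry1-6 rdr6-11* against *fry1-6 rdr1-1* was 0.13 with total counts as the scaling, in place of -0.20, and that in *fry1-6 rdr6-11* against *fry1-6* was 0.49, in place of 0.25.

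Same-numbered libraries correlated at 0.67 between WT and *fry1-6* but at -0.23 to 0.18 in the other pairs of genotypes, so the numbers were not taken to pair the libraries. With the replicate block, the members called against WT were 4 for *fry1-6*, 5 for *fry1-6 rdr6-11* and 4 for *fry1-6 rdr1-1*, and 0 between mutants. In *fry1-6 rdr6-11* against *fry1-6* the block gave 555 calls over all genes in place of 1082, and a crossed pairing, chosen after seeing the data, gave 2 members and 2444 genes.

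Counts over all genes moved more. DESeq2 called 1976 genes in *fry1-6* against WT in place of 1232, 3099 in *fry1-6 rdr1-1* against WT in place of 1812, 2767 in *fry1-6 rdr6-11* against *fry1-6* in place of 1082, then 699 in place of 60 for *fry1-6 rdr1-1* against *fry1-6*, and 1283 in *fry1-6 rdr6-11* against *fry1-6 rdr1-1* in place of 251. With total counts the calls in *fry1-6 rdr6-11* were 5813 higher and 968 lower against WT, in place of 2484 and 1807, 1514 and 493 against *fry1-6*, in place of 416 and 666, and 41 and 100 against *fry1-6 rdr1-1*, in place of 23 and 228. Fits of only the genotypes compared called 0, 1688 (of 4291) and 84 genes in the comparisons of *fry1-6*, *fry1-6 rdr6-11* and then *fry1-6 rdr1-1* with WT, and 30 and 1122 in *fry1-6 rdr1-1* against *fry1-6* and *fry1-6 rdr6-11* against *fry1-6 rdr1-1*. In *fry1-6 rdr1-1* against *fry1-6* no gene was called without the organelle genes, and in *fry1-6 rdr6-11* against *fry1-6 rdr1-1* the crossed pairing gave 516. Leaving out a library gave 543 to 1098, 647 to 3908 and 333 to 1782 genes against WT in the same order, and 23 to 2084, 19 to 86 and 0 to 491 between mutants. Few counts limited *GRF6*, *GRF7* and *GRF8*. The causes of these shifts were not tested.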
